A study of Sorghum bicolor with 9 samples.

Results

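Anthers of the sorghum cultivar M35-1 that held mature pollen (stage A3) were compared here with anthers that held microspores (stage A2). The plants grew in an open field and carried no treatment or transgene. Whole anthers were taken, so each sample mixed the anther wall, the tapetum (the innermost wall layer) and the developing male cells, although the tissue is labelled male gametophyte. Total RNA was sequenced in 3 libraries per stage, and another stage of the series, with meiocytes (A1), serves only as a reference. The authors combined the 3 libraries of a stage into 1 value per locus, in FPKM, a count of fragments scaled by transcript length and by library size, which allows levels of different loci to be set side by side. No replicate spread, read count or depth per locus comes with these values, so every difference given here is a description without a test or an error. All 3 A3 libraries carried the project code P5197, which 1 of 3 A2 libraries shared while the other 2 carried P5179, and project and stage cannot be told apart in the combined values. Members were the loci with at least 1 sorghum gene ID and 1 FPKM or more in A2 or in A3. Of 40082 loci in the table, 33115 had a gene ID and 19674 of these were members, with 20702 IDs among them. A locus was called higher or lower in A3 when (A3 + 0.5)/(A2 + 0.5) was at least 2 or at most its inverse, and log2 values refer to this ratio.

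As background, the tapetum feeds the microspores, makes the lipid and phenolic building blocks of the outer pollen wall (exine) and then degenerates before the pollen is mature. Each microspore divides asymmetrically, fills with starch, lipid or sugar reserves, and stores mRNA and proteins used when the pollen tube germinates and grows at its tip. Tip growth is known to rely on actin filaments, vesicle traffic, calcium signals and enzymes that loosen or stiffen the cell wall.

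Mature pollen anthers had more loci at a higher level than at a lower one. Of 19674 members, 4740 (24.1%) were at least 2-fold higher in A3, 3625 (18.4%) were at least 2-fold lower, and 11309 lay within 2-fold. The typical locus did not differ, with a median log2 of 0.01 over all members. The spread was wide, with a lower quartile of -0.70 and an upper quartile of 0.95. Scaling both stages to the same FPKM sum, which is 672303 in A2 and 815871 in A3 as deposited, moved the median of all loci by -0.26 and turned the balance around, with 4100 loci higher and 4665 lower. Higher loci made up 56.7% of all called loci as deposited, 46.8% after that scaling, 48.7% after quantile normalization and 55.5% after median-of-ratios scaling. Quantile normalization gave 4162 higher and 4385 lower loci. Under all 4 scalings tried, 3952 of the 4740 higher loci and all 3625 lower loci kept their call, but each of them moved the median down, by -0.03 to -0.26, a direction in which lower calls are seldom lost, so their retention says little about stability.

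As deposited, higher loci outnumbered lower ones at every fold counted. The ratio of their counts was 1.31 at 2-fold, 1.59 at 4-fold (2529 and 1594 loci), 1.92 at 10-fold (1160, 5.9%, and 604, 3.07%), 1.83 at 100-fold (189 and 103) and 1.27 at 1000-fold (19 and 15). Higher loci had a median of 1.02 FPKM in A2 and 11.8 in A3. Of them, 202 were at 0 in A2 and 2151 above 0 and under 1 FPKM there. These were members only through A3, which lowers that A2 median. Over all members, 2662 passed the minimum only through A3 and 2014 only through A2. Lower loci had a median of 10.2 FPKM in A2 and 1.38 in A3. Both sets had nearly the same median in A1 as in A2, 0.969 FPKM for the higher and 9.91 for the lower loci. Close to the limit for higher loci, Sobic.001G092000 (0.658 FPKM in A2, 1.82 in A3) was inside and Sobic.006G002000 (34.8 and 70.1) was outside. Close to the limit for lower loci, Sobic.001G450200 (1.499 and 0.499) was inside and Sobic.005G066900 (11.2 and 5.35) was outside. At the 1 FPKM minimum, Sobic.010G235400 was just kept and Sobic.007G121200 just left out.

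Called loci held very different shares of the total expression in the 2 stages, in a direction that the calls themselves set. The 4740 higher loci held 5.95% of the FPKM sum of A2 and 35.1% of that of A3, whereas the 3625 lower loci held 26.4% and 3.04%. The 10 higher loci with the most FPKM in A3 went from 0.392% to 7.95% of the sum. The 10 lower loci with the most FPKM in A2 went from 4.55% to 0.0369%. Both sets of 10 were picked on these same values, so only the size of the shares is described.

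**Figure D1:**
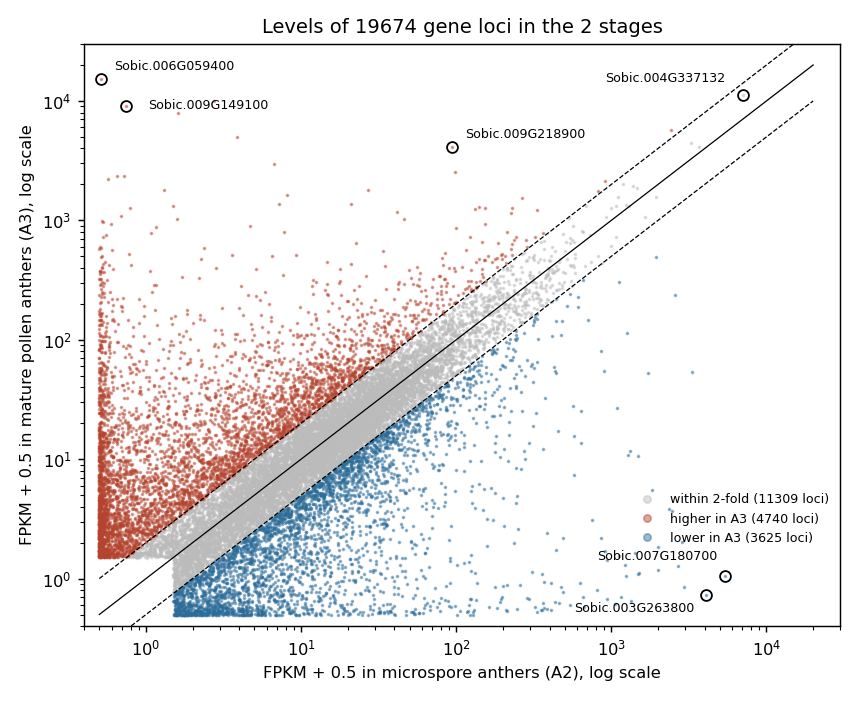
Levels of the 19674 member loci in microspore anthers (A2, horizontal) and mature pollen anthers (A3, vertical), both in FPKM + 0.5 on log scales. Each point is 1 locus, the solid line marks equal levels and the dashed lines mark 2-fold differences, and the 6 circled loci include Sobic.006G059400 at 15282 FPKM in A3 and Sobic.003G263800, which was at 4054 FPKM in A2 and 0.224 in A3.

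The most abundant loci of A3 were nearly off in A2, or already abundant there. Sobic.006G059400 stood at 0.0139 FPKM in A2 and 15282 in A3, the highest A3 level and the highest log2 (14.86) of all members. Sobic.007G219300 (chromosome 7, 64755435 to 64756352 in genome version v3.0.1) had 3.35 FPKM in A2 and 4950.3 in A3. Sobic.009G218900 (chromosome 9, 56248488 to 56254272) had 93.5 and 4106 FPKM. Of the 10 highest loci of A3, the 3 on chromosome 4 lay within 2-fold, namely Sobic.004G337132 (7080.2 and 11271 FPKM), Sobic.004G120150 (3287 and 4402) and Sobic.004G303466 (3699.7 and 4107). These IDs have no description in the annotation used here.

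Of the 10 highest loci of A2, the same 3 loci of chromosome 4 lay within 2-fold, and 7 were lower in A3. A locus that joins Sobic.007G205800 with its neighbours was at 3293 FPKM in A2 and 53.2 in A3, and one that joins Sobic.008G032400 with its neighbours at 2560.5 and 237. The other 5 were at 1.51 FPKM or less in A3. LTPL44 (Sobic.007G180700), named for a rice lipid transfer protein, was at 5380.3 FPKM in A2 and 0.543 in A3. Its deposited interval is shared with another locus. Sobic.003G263800 (chromosome 3, 60113010 to 60113303) had 4054 FPKM in A2 and 0.224 in A3, the lowest log2 of all members at -12.45. Sobic.006G267400 (2936 and 0.351 FPKM), Sobic.005G118700 (2849 and 1.51) and Sobic.007G000600 (2701 and 0.774) were likewise almost gone in A3. These 5 were at 2397 to 6025 FPKM in A1 as well.

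A listed 0 may be a failed estimate, so no fold is given for a single locus against it, and its log2 is set by the 0.5 FPKM added. Among members, 202 loci were listed at 0 in A2, with a median of 3.94 FPKM in A3 and 9 loci at 100 FPKM or more, up to 578 FPKM for Sobic.007G167000. Another 102 loci were listed at 0 in A3, with a median of 2.42 FPKM in A2 and 3 loci at 100 FPKM or more, up to 128 FPKM for Sobic.006G122300.

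Loci of both directions lay on all 10 chromosomes in similar shares. The share of higher loci ranged from 21.9% of 1322 loci on chromosome 7 to 26.1% of 1668 on chromosome 10. The share of lower loci ranged from 17.4% of 1643 on chromosome 9 to 19.2% of 1736 on chromosome 6. Each chromosome had more higher than lower loci as deposited, with a ratio of 1.19 on chromosomes 1 and 7, 1.25 to 1.36 on chromosomes 2, 3, 4, 5, 6 and 8, 1.45 on chromosome 10 and 1.49 on chromosome 9. After scaling to the same sum this held on 2 chromosomes, and after quantile normalization on 3. Chromosome 1, with 3551 members, had 802 higher and 672 lower loci, and chromosome 5, with 978 members, had 246 and 183.

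At 10-fold the chromosomes stood further apart in their share of lower loci than in that of higher loci. Of 1643 members on chromosome 9, 106 were 10-fold higher and 34 lower, and of 1322 on chromosome 7, 73 and 58. Over all members 5.9% were 10-fold higher and 3.07% lower. The summed FPKM of the members on chromosome 9 was 41319 in A2 and 66306 in A3, of which Sobic.009G149100 alone gave 9096 in A3. As deposited, with a larger sum over all loci in A3, chromosome 7 was the single chromosome with a lower sum in A3. It had 50579 FPKM in A2 and 43048 in A3. It carries abundant loci that were far lower in A3, such as LTPL44 and Sobic.007G000600, and Sobic.007G219300, which was far higher. Chromosome sums were not recomputed under other scalings. Another 23 members lay on 15 scaffolds, 3 of them higher and 2 lower.

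**Figure D2:**
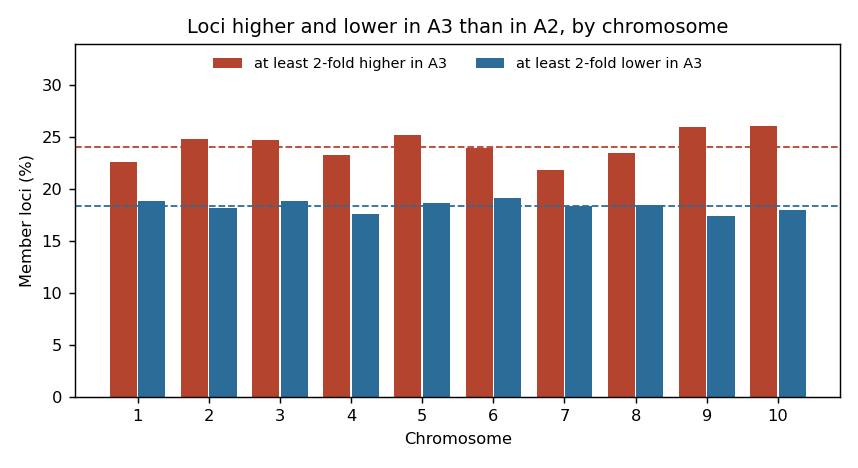
Share of member loci (%) at least 2-fold higher (red) and at least 2-fold lower (blue) in A3 than in A2 on each of the 10 chromosomes, with dashed lines at the shares over all members (24.1% and 18.4%). Shares of higher loci run from 21.9% on chromosome 7 to 26.1% on chromosome 10, and those of lower loci from 17.4% on chromosome 9 to 19.2% on chromosome 6.

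Each chromosome had a locus of very large difference in each direction. Among single-ID loci with 10 FPKM or more in a stage, the highest log2 was 10.42 on chromosome 1 for Sobic.001G332000 (0.0484 FPKM in A2, 749 in A3), annotated by its rice match as a pollen allergen. It was 9.50 on chromosome 2 for Sobic.002G237100 (0.0772 and 419 FPKM), 11.67 on chromosome 4 for Sobic.004G159200 (0.218 and 2343) and 10.90 on chromosome 5 for Sobic.005G006400 (0.0178 and 990.2). On chromosome 8 it was 11.93 for Sobic.008G043200 (0.0666 and 2211) and on chromosome 10 it was 10.67 for Sobic.010G015100 (0.283 and 1273). All 6 were at 0.283 FPKM or less in microspore anthers and at 419 FPKM or more in mature pollen anthers.

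In the other direction, Sobic.001G215000 led chromosome 1 at a log2 of -10.73 (2008 FPKM in A2, 0.682 in A3). On chromosome 2 it was LTPL45/YY1 (Sobic.002G270400), a lipid transfer protein named for its rice orthologue, at -10.08 (2006 and 1.35 FPKM). Sobic.004G001700 led chromosome 4 (1147 and 0.197 FPKM, -10.68), Sobic.008G083100 chromosome 8 (664 and 0.0825, -10.16), Sobic.009G046000 chromosome 9 (625 and 0.419, -9.41) and Sobic.010G001700 chromosome 10 (1235 and 0.55, -10.20). These 6 were at 625 FPKM or more in A2 and at 1.35 or less in A3. Sobic.001G215000, Sobic.004G001700, Sobic.007G000600 and Sobic.010G001700 share their deposited interval with another locus.

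Along the chromosomes, lower calls were least frequent in the gene-poor middle, whereas higher calls showed no such trend across it. With each chromosome cut into 10 equal parts, 12.2% of the 90 loci in part 5 were lower. That share was 14.4% in part 4, 13.7% in part 6 and 19.7% of the 5110 loci in the last part. The share of higher loci was 15.6% in part 5, which held few loci. It was 27.1% in part 3, 21.3% in part 4, 22.9% in part 6 and 23.8% in the last part. Neighbouring loci were on the same side a little more often than all loci. The next locus was also higher for 28.4% of higher loci, beside 24.1% of all, and also lower for 22.1% of lower loci, beside 18.4% of all. Runs of 5 or more numbered 32 for higher loci (179 loci) and 9 for lower loci (51 loci). Close copies in a run may share reads, and their values are uncertain for that reason.

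The longest run in each direction held 8 loci. The higher run lay on chromosome 1 between 51357062 and 51736813, and its first members are annotated as glycosyl hydrolases of family 38 (alpha-mannosidases). Sobic.001G269000 in it was at 0.903 FPKM in A2 and 43.1 in A3, Sobic.001G269200 at 0.0249 and 22.2, and Sobic.001G269700 at 0.00418 and 18.6. All 8 ended between 9.13 and 43.1 FPKM. The lower run lay on chromosome 10 between 3723842 and 3781573 and has no annotation here. It held Sobic.010G048000 (121 FPKM in A2, 0.173 in A3), Sobic.010G048200 (46.7 in A2 and listed at 0 in A3) and Sobic.010G048700 (35.1 and 0.116). Of its 8 loci, 3 were listed at 0 in A3.

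Some neighbours stood on opposite sides. Of 17456 pairs of neighbouring loci with separate intervals, 48 (0.275%) had 1 locus at least 10-fold higher and the other at least 10-fold lower, beside 5.9% and 3.07% of all members, and nothing is read from that share. Descriptions cover chromosomes 1 and 2 only, which hold 14 of the 48 pairs, and in 3 of these 14 both loci have the same kind of product. A pair of cytochromes P450 of subfamily 81D was at 78.4 FPKM in A2 and 0.0365 in A3 (Sobic.001G082200) and at 0.0184 and 10.04 (Sobic.001G082300). OsDIL (Sobic.001G266600), a rice lipid transfer protein of the anther, was at 357 and 0.598 FPKM beside a further LTPL37 copy (Sobic.001G266500) at 4.61 and 229.9. LTPL62 (Sobic.002G129800) at 75.3 and 3.43 FPKM stood beside LTPL50 (Sobic.002G129600) at 4.17 and 892. A sucrose synthase 4 gene (Sobic.001G344500), an enzyme that splits sucrose, was at 167 and 5.21 FPKM beside a 3-oxoacyl synthase gene of fatty acid synthesis (Sobic.001G344400) at 14.2 and 293.

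The abundance in A2 separated the directions. A2 is the denominator of the ratio, so a locus that was low in A2 could only be a member by being at 1 FPKM or more in A3, and the classes below 1 FPKM hold no lower locus by construction. The 202 loci at 0 in A2 were all called higher, which the minimum of 1 FPKM in A3 also fixed in advance. Of the 2460 loci above 0 and under 1 FPKM, 87.4% were called higher, a share that the same minimum raised. From 1 to under 10 FPKM, 19.7% of 8064 loci were higher and 22.3% lower. From 10 to under 100 FPKM, 9.29% of 7983 were higher and 19.3% lower. At 100 FPKM or more, 6.22% of 965 were higher and 29.7% lower, with a median log2 of -0.43. In that top class 136 loci (14.1%) were at least 10-fold lower and 0 were 10-fold higher.

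Classes by A1, which is not part of the ratio, are not free of this either, since loci low in A1 were low in A2 too (median 0.338 FPKM in the A1 class above 0 and under 1) and were members mostly through A3. By A1 class, 72.4% of the loci above 0 and under 1 FPKM were higher and 11.2% lower, 20.8% and 19.5% from 1 to under 10, 9.34% and 19.5% from 10 to under 100, and 5.28% and 26% at 100 FPKM or more (1004 loci). Classed by A3, the numerator, the order was reversed in the top class, with 41% of 1139 loci higher and 2.46% lower.

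**Figure D3:**
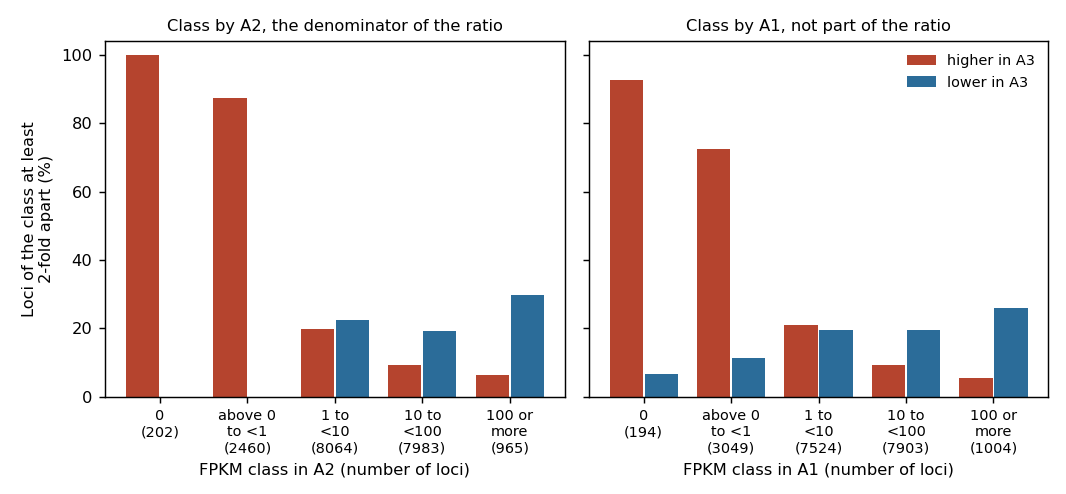
Share of loci (%) at least 2-fold higher (red) or lower (blue) in A3 than in A2 by FPKM class, with the class taken from A2 on the left and from A1 on the right and the number of loci in brackets. In both panels the share of higher loci decreases with abundance, to 6.22% and 5.28% at 100 FPKM or more, while 29.7% and 26% of these abundant loci are lower.

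Moves between the outer classes were few. From under 1 FPKM in A2 (zeros included), 108 + 9 loci reached 100 FPKM or more in A3, and from 100 FPKM or more, 64 + 3 loci ended under 1. A total of 597 loci were at 100 FPKM or more in both stages. In the class of 10 to under 100 FPKM, 17.1% (chromosome 7) to 21.5% (chromosome 6) of loci were lower and 4.28% (chromosome 5) to 11.9% (chromosome 9) higher. In the top class, of 27 to 181 loci per chromosome, 14.5% of loci were lower on chromosome 9 and 48.6% on chromosome 8.

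The labelled stages were set beside marker genes of the cell types. The markers are sorghum orthologues of rice genes known from those cells, from a list of genes that were differential in these same samples, so their direction is no independent check of the labels. In bulk samples fewer cells of a type cannot be told apart from less RNA per cell. All 5 pollen markers were higher in A3 and at 24.0 to 86.2 FPKM there, and their summed level was 0.581 FPKM in A2 and 279 in A3, with 3 of 5 listed at 0 in A2. All 9 tapetum markers (TDR, TIP2, OsNP1, OsACOS12, OsSTRL2, CYP703A3, CYP704B2, OsPKS2 and OsABCG26) were lower in A3, with a sum of 6903 FPKM in A2 and 189.8 in A3, and 6 of 9 were still at 1 FPKM or more in A3. WDA1 and the 2 DAO copies, which also act in the anther wall or tapetum of rice and were higher in A3, are not among these 9. Both microspore markers, LTPL44 and LTPL45/YY1, summed to 7387 FPKM in A2 and 1.90 in A3. Of 6 meiocyte markers, 4 were lower in A3 and 5 were at 1 FPKM or more in A2, with sums of 119 and 48.3 FPKM. The 3 genes of meiosis and recombination that were higher in A3 are not among these 6. They are MEL2 on chromosome 8 and the RPA1c copies Sobic.009G012200 and Sobic.009G012500. The part of these cell types in any other gene's difference was not tested.

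Genes with a known role in the anther were described next in lists by function. The study lists these 63 orthologues as differential in the same samples, so the counts below are no independent evidence of a direction. Over all members, which were not picked in that way, 24.1% were higher and 18.4% lower. Of the 63 genes, 61 were members, and 2 were under 1 FPKM in both stages (XRCC3 and a further ZEP1 copy).

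Genes for the pollen wall and anther cuticle were mostly far lower in A3. The list also holds UAM3, a gene of the inner pollen wall in rice, and LTPL45/YY1, known there from microspores. Of 11 genes, 10 were lower in A3 and 1 higher, with a median log2 of -8.35, and their summed level was 12815 FPKM in A2 and 357 in A3. The rice enzymes that make sporopollenin precursors were among them. CYP704B2, a fatty acid omega-hydroxylase, was at 1498 FPKM in A2 and 0.609 in A3, CYP703A3, an in-chain fatty acid hydroxylase, at 942 and 0.921, the polyketide synthase OsPKS2 at 1820.1 and 5.06, and the acyl-CoA synthetase OsACOS12 at 386 and 1.92. OsNP1, an oxidoreductase of the tapetum, was at 293 FPKM in A2 and 0.179 in A3, and HTH1, its relative needed for the cuticle, at 194 and 0.171. The lipid exporter OsABCG26 kept more of its level, 188 FPKM in A2 and 40.9 in A3. WDA1, a rice gene of wax synthesis in the anther epidermis, went the other way, at 45.7 FPKM in A2 and 295 in A3.

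Genes of the tapetum and anther wall were mostly lower as well. Of 10 genes, 8 were lower and 2 higher, with a median log2 of -2.16. The rice bHLH factors TDR and TIP2, which control the death of the tapetum, were at 337 and 154 FPKM in A2 and still at 101 and 28.7 in A3. The strictosidine synthase-like gene OsSTRL2 was at 1285 FPKM in A2 and 10.4 in A3, DTC1 at 44.2 and 0.974, and OsAP25, an aspartic protease of the dying tapetum, at 17.2 and 0.103. Both higher genes are copies of DAO, a dioxygenase that inactivates auxin in rice, at 1.75 FPKM in A2 and 161 in A3 (Sobic.006G118400) and 0.685 and 18.1 (Sobic.004G149100).

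Genes of meiosis and recombination were mostly lower in A3, by smaller folds than the pollen wall genes. Of 24 member genes, 19 were lower, 3 higher and 2 within 2-fold, with a median log2 of -1.57. The list covers cyclins, replication proteins and recombination proteins. The mitotic cyclin OsCycB1 had the lowest log2 of the list at -6.89 (131 FPKM in A2, 0.611 in A3). Subunits of replication protein A, which binds single-stranded DNA, split by copy, with RPA2A at 9.66 FPKM in A2 and 0.219 in A3 and the RPA1c copies Sobic.009G012200 and Sobic.009G012500 higher in A3 at 5.16 and 1.33. Crossover proteins were lower but not absent, as for HEI10 (45.9 and 15.7 FPKM) and the axis protein PAIR3 (31.1 and 11.3). ZEP1, a central element of the synaptonemal complex, stayed within 2-fold at 47.7 FPKM in A2 and 25.2 in A3. The copy of MEL2 on chromosome 8 (Sobic.008G138200), an RNA-binding protein that times meiosis in rice, was higher in A3 (2.62 and 8.83).

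Pollen genes and most sugar genes were higher. All 4 pollen genes were, and since 3 of them were listed at 0 in A2 no median log2 is given. Both OSIPA copies, which match Arabidopsis expansin B2, were listed at 0 in A2 and at 69.5 and 33.9 FPKM in A3, the calmodulin-binding protein OsPCBP was listed at 0 and at 24.0, and OsPLIM2b, an actin-bundling LIM protein of pollen, was at 0.0793 and 86.2. Of 4 sugar and starch genes, 3 were higher, with a median log2 of 5.45. Cell wall invertases cut sucrose outside the cell, and the 2 OsINV4 copies differed in direction, with Sobic.001G099700 at 5.15 FPKM in A2 and 0.390 in A3 and Sobic.006G070032 at 1.34 and 176. OsINV1 was at 0.785 and 36.7 FPKM and OsUgp2, which makes UDP-glucose in rice pollen, at 0.502 and 65.8.

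Among 8 other listed genes, 5 were higher and 3 lower. Of the genes in these lists, OsNP1, OsUgp2, AtWHIRLY2, ARF8, MRE11, OsRAD21, LTPL44, the DAO copy on chromosome 6 and an RPA1c copy on chromosome 7 share an interval with another locus. OsMADS3, a rice floral homeotic factor that acts late in anthers too, was at 41.6 FPKM in A2 and 292 in A3. MID1, a rice MYB factor of drought response, was at 6.84 and 49.8 (Sobic.009G154200) and at 5.97 and 20.1 (Sobic.003G365600). AtWHIRLY2, a DNA-binding protein of Arabidopsis mitochondria, was at 36 FPKM in A2 and 7.93 in A3, and Ctb1, an F-box protein of cold tolerance in rice, at 18.5 and 6.92.

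**Figure D4:**
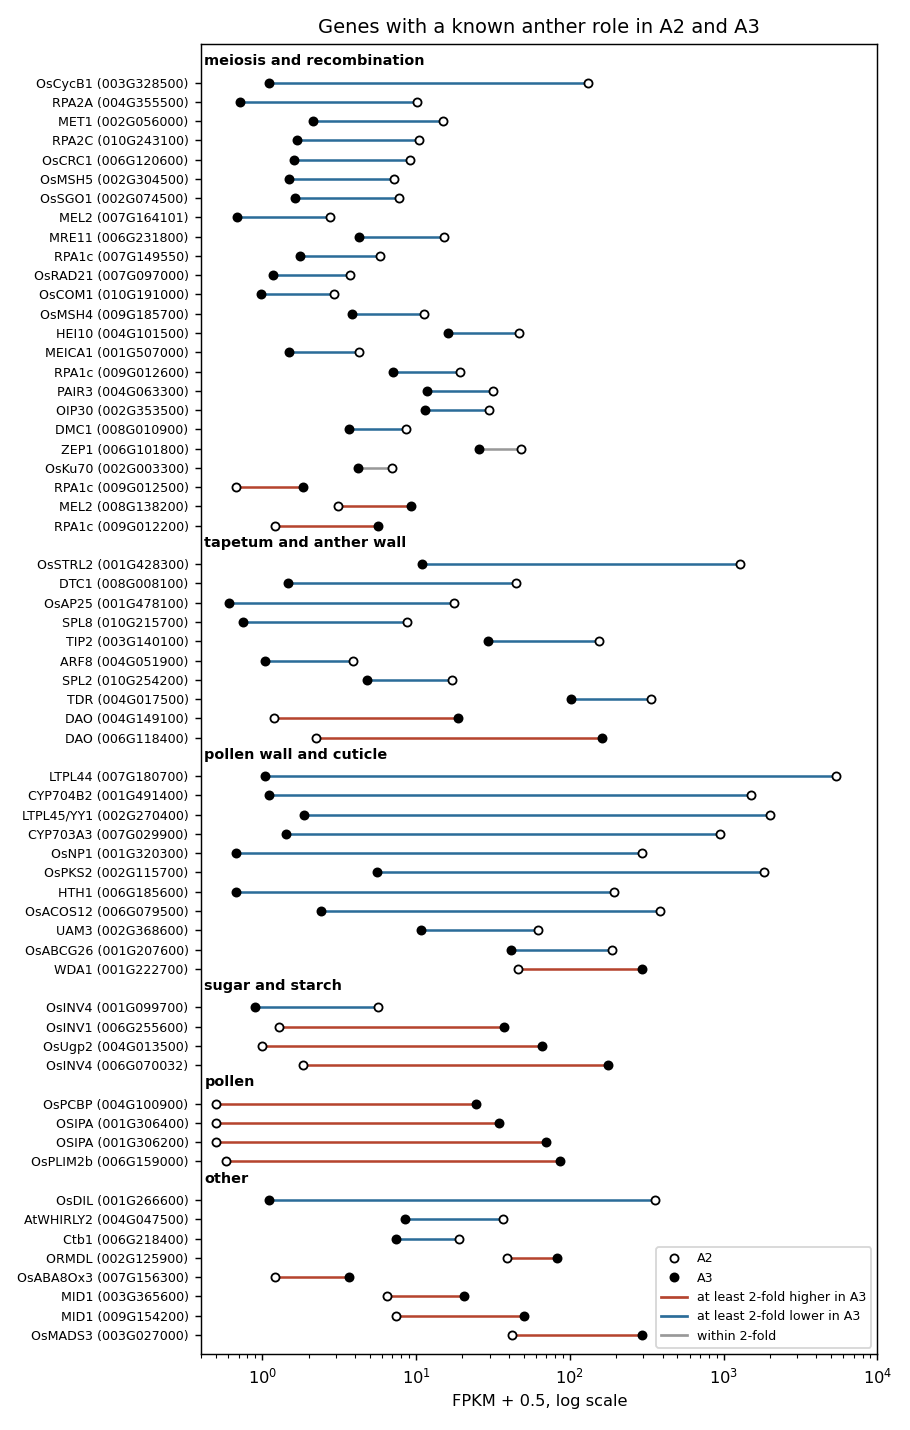
Levels (FPKM + 0.5, log scale) in A2 (open circles) and A3 (filled circles) of the 61 member genes with a known anther role, by list, each named for its rice or Arabidopsis orthologue with the sorghum ID in brackets. Red lines are at least 2-fold higher in A3, blue lines at least 2-fold lower and grey lines within 2-fold, and the pollen wall genes span the widest range, down from 5380.3 FPKM in A2 to 0.543 in A3 for LTPL44.

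Annotated gene groups were available for chromosomes 1 and 2. Their annotation was published with the study, for genes it called differential. All of these genes were picked on these samples, so group counts are set beside those of the whole annotated set, where 839 (54.7%) of 1534 loci were higher and 618 (40.3%) lower with a median log2 of 1.35, and they support no direction of their own. Described genes with extreme values included UGT73B4 (Sobic.001G093100), a glycosyltransferase, at 0.0789 FPKM in A2 and 105 in A3, and the beta subunit of the transcription factor TFIIE (Sobic.001G257200) at 0.152 and 219. A cytochrome P450 of family 709 (Sobic.001G359100) was at 0.2 and 175 FPKM, and a Cyn d 23 pollen allergen (Sobic.002G351500) at 0.0233 and 107. On the lower side a ribosome-inactivating protein (Sobic.001G133100) was at 430.1 FPKM in A2 and 0.131 in A3, and an aspartyl protease (Sobic.002G222700) at 177 and 0.347. Of 7 loci with a pollen allergen description, 4 were higher and 3 lower. A lower one, the Ole e I family match Sobic.001G438400, was at 1128 FPKM in A2 and 1.04 in A3.

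Groups of DNA, RNA and microtubule genes are given first. Of 27 genes for DNA synthesis and chromatin, 25 were lower and 2 higher, with a median log2 of -1.88. Histones package DNA, and all 9 loci of the histone class were lower, whereas of 9 loci with a histone description 8 were lower and 1 higher (Sobic.002G223600, 11.2 and 39.1 FPKM). The class was led by an H2A gene (Sobic.001G416800) at 327 FPKM in A2 and 23.8 in A3. Histone copies are alike in sequence, so their separate values are uncertain. Of 6 DNA repair loci, 2 were higher, 2 lower and 2 within 2-fold. Of 10 RNA-binding genes, 9 were lower and 0 higher, among them a homologue of the splicing factor SC35 (Sobic.001G352300) at 13.1 and 1.21 FPKM. Of 18 RNA processing genes, 11 were lower and 4 higher, and the small RNA enzyme dicer-like 3 (Sobic.001G214000) was at 26.8 FPKM in A2 and 0.281 in A3. Of 6 kinesins, motors that move on microtubules, 5 were lower, as for Sobic.001G177900 (31.5 and 0.612), while Sobic.001G399200 was higher (8.66 and 38.3). Of 5 tubulins, 4 were lower and Sobic.001G146000 was higher (31.8 and 109). The microtubule end-binding protein EB1C (Sobic.001G205000) was at 46.5 and 0.987 FPKM.

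Cell wall groups differed from each other. Of 7 cell wall proteins 3 were higher and 4 lower, with a summed level of 1239 FPKM in A2 and 53.7 in A3. Most of the A2 sum came from 1 locus, Sobic.001G438400, at 1128 FPKM in A2 and 1.04 in A3. Of 11 beta-1,3-glucan hydrolases, which digest callose, 5 were higher and 6 lower. All 3 loci described by pectate lyase or polygalacturonase were lower, of which Sobic.002G248300 matches a polygalacturonase inhibitor (23.3 and 6.13). Expansins loosen walls, and 11 of 13 were higher and 2 lower, with a median log2 of 4.28 and a summed level of 60.0 FPKM in A2 and 669 in A3. A cluster of expansin B2 copies near the end of chromosome 1 was listed at 0 in A2 and at 16.3 FPKM (Sobic.001G539700), 29.9 (Sobic.001G539760), 83.5 (Sobic.001G539820) and 113 (Sobic.001G539880) in A3. These copies lie side by side and may share reads. All 6 loci described as inhibitors of invertase or pectin methylesterase were higher, from a sum of 0.673 FPKM to 239. Such inhibitors are small proteins that block those wall enzymes. The set was led by Sobic.001G024400 (0.0846 and 76.4) and Sobic.002G091200 (0.462 and 79.4). For Sobic.001G024400 only the rice match names an inhibitor domain, and the Arabidopsis match is pectin methylesterase 1, an enzyme. Of 7 loci of the cellulose synthase class, 6 were higher, among them a CSLD5 match (Sobic.002G334400) at 6.33 and 66.7 FPKM. CESA6 (Sobic.002G094600) was within 2-fold at 19.5 and 10.1. Of 9 loci with a cellulose synthase description, 7 were higher and 1 lower, the CSLC10 match Sobic.002G022700 (13.5 and 1.56). Of 4 genes for actin and actin-binding proteins, 3 were higher and 1 lower. The filament-severing ADF11 (Sobic.002G303500) was at 0.255 FPKM in A2 and 42.6 in A3, and the bundling protein villin 2 (Sobic.001G366700) at 0.781 and 47.8. The lower gene, Sobic.001G162500, codes for a LIM domain protein (14.3 and 2.41).

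Signalling genes divided by family. G-proteins switch traffic and growth on and off, and 6 of 11 were higher and 5 lower, with a median log2 of 1.01 that became -0.16 over loci with an interval of their own. The higher ones included regulators of vesicle traffic, as the Rab GTPase A3 (Sobic.002G271600, 0.910 and 79.8 FPKM), a Rab-GAP (Sobic.002G323000, 1.24 and 107) and a Rab GDP dissociation inhibitor (Sobic.002G103800, 0.408 and 35.5). Of 21 calmodulin-like proteins and calcium-dependent kinases, 14 were higher and 6 lower in this set made from descriptions, while the pathway class of calcium signalling had 3 of 10 higher and 7 lower. That class holds 2 calreticulins, calcium-binding chaperones, one of which (Sobic.001G025500) was at 423.6 FPKM in A2 and 58.3 in A3. An EF-hand protein (Sobic.001G339801) was at 2.96 FPKM in A2 and 72.9 in A3, and CIPK9 (Sobic.001G523200), a kinase activated by calcium sensors, at 4.20 and 70.5. Calmodulin-like 41 (Sobic.001G076300) differed the other way, at 61.6 FPKM in A2 and 0.194 in A3. Of 11 receptor kinases with leucine-rich repeats of class XI, 9 were lower, among them Sobic.001G074000 (32.1 and 1.07) and Sobic.002G032500 (12.8 and 0.331).

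Enzymes that modify small molecules differed by class. Of 16 UDP-glycosyltransferases, which attach sugars to hormones and phenolics, 14 were higher and 1 lower, with a median log2 of 3.04. The 1 lower gene, Sobic.001G459700, was at 31.3 FPKM in A2 and 0.0636 in A3, whereas Sobic.002G265600 was at 0.305 and 71.0. Of 10 glutathione S-transferases, detoxifying enzymes, 8 were higher, led in level by Sobic.001G412800 (5.51 and 66.2 FPKM). Of 21 cytochromes P450, 14 were higher and 6 lower, with CYP704B2 among the latter. Of 8 oxidases, 2 were higher and 6 lower.

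Carbon, metal and hormone genes differed gene by gene. All 4 trehalose genes were higher, with Sobic.002G194700 at 20.5 FPKM in A2 and 90.2 in A3. Of 7 genes that break down sucrose and starch, 4 were higher, and the sucrose synthases differed in direction, as sucrose synthase 3 (Sobic.001G378300) was at 14.3 and 236 FPKM and sucrose synthase 4 was lower. A beta-amylase 1 gene (Sobic.001G508800), which releases maltose from starch, was at 1.77 and 59.9. Of 8 metal transporters, 7 were higher, such as the zinc transporter Sobic.001G156800 (0.413 and 39.4 FPKM), and a cation efflux gene (Sobic.001G445000) was lower (69.7 and 4.03). Of 12 auxin genes, 7 were higher and 5 lower, and an OsGH3.8 match (Sobic.002G361500), an enzyme that conjugates auxin to amino acids, was at 3.07 FPKM in A2 and 513 in A3. Of 11 sugar transport genes, 7 were higher and 2 lower, among the higher ones the polyol transporter 5 match Sobic.002G354000 (5.47 and 26.3). Of 7 abscisic acid genes, 5 were higher, including aldehyde oxidases such as Sobic.002G107600 (2.08 and 30.9), a family whose members make the hormone in Arabidopsis.

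Proteases, regulators and lipid genes completed the groups. Of 5 aspartic proteases 3 were lower and 2 higher. Of 7 loci of the serine protease class, 6 were higher and 0 lower, led by a carboxypeptidase (Sobic.002G121300) at 1.71 FPKM in A2 and 149 in A3. Subtilases, also serine proteases, are classed apart, and of 8 by description 5 were higher and 3 lower. The subtilase Sobic.001G170700 was at 53.5 FPKM in A2 and 0.0610 in A3. All 5 loci of the cysteine protease class were higher, although its leading gene by log2, Sobic.001G324800 (17.2 and 299 FPKM), codes for a cysteine protease inhibitor. The ubiquitin system, which marks proteins for breakdown, was balanced, with 19 of 43 loci higher and 20 lower. Transcription regulators were balanced as well, with 54 of 111 higher and 50 lower, and among 8 MYB factors 3 were higher and 5 lower. Of 21 genes classed under abiotic stress, 15 were higher and 4 lower, and SPX1 (Sobic.001G259100), a sensor of phosphate supply in Arabidopsis and rice, was at 70.4 FPKM in A2 and 0.146 in A3. The type-A response regulator OsRR7 of cytokinin signalling (Sobic.002G123400) was at 0.417 FPKM in A2 and 36.7 in A3, and a MYB101 match (Sobic.001G183100) at 31.9 and 1.53. Fatty acid synthesis genes divided too, with 8 of 20 higher and 10 lower, and 2 ketoacyl-CoA synthases, enzymes that lengthen fatty acids for waxes, stood apart, KCS11 (Sobic.001G247700) at 40.5 and 0.977 FPKM and KCS12 (Sobic.001G354700) at 1.22 and 46.9. Of 13 lipid transfer proteins, 6 were higher and 7 lower, with a median log2 of -1.88 that became 1.46 with a minimum of 5 FPKM. None of the 13 lay within 2-fold, and only 77 of all 1534 annotated loci did, since these genes were picked as differential.

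**Figure D5:**
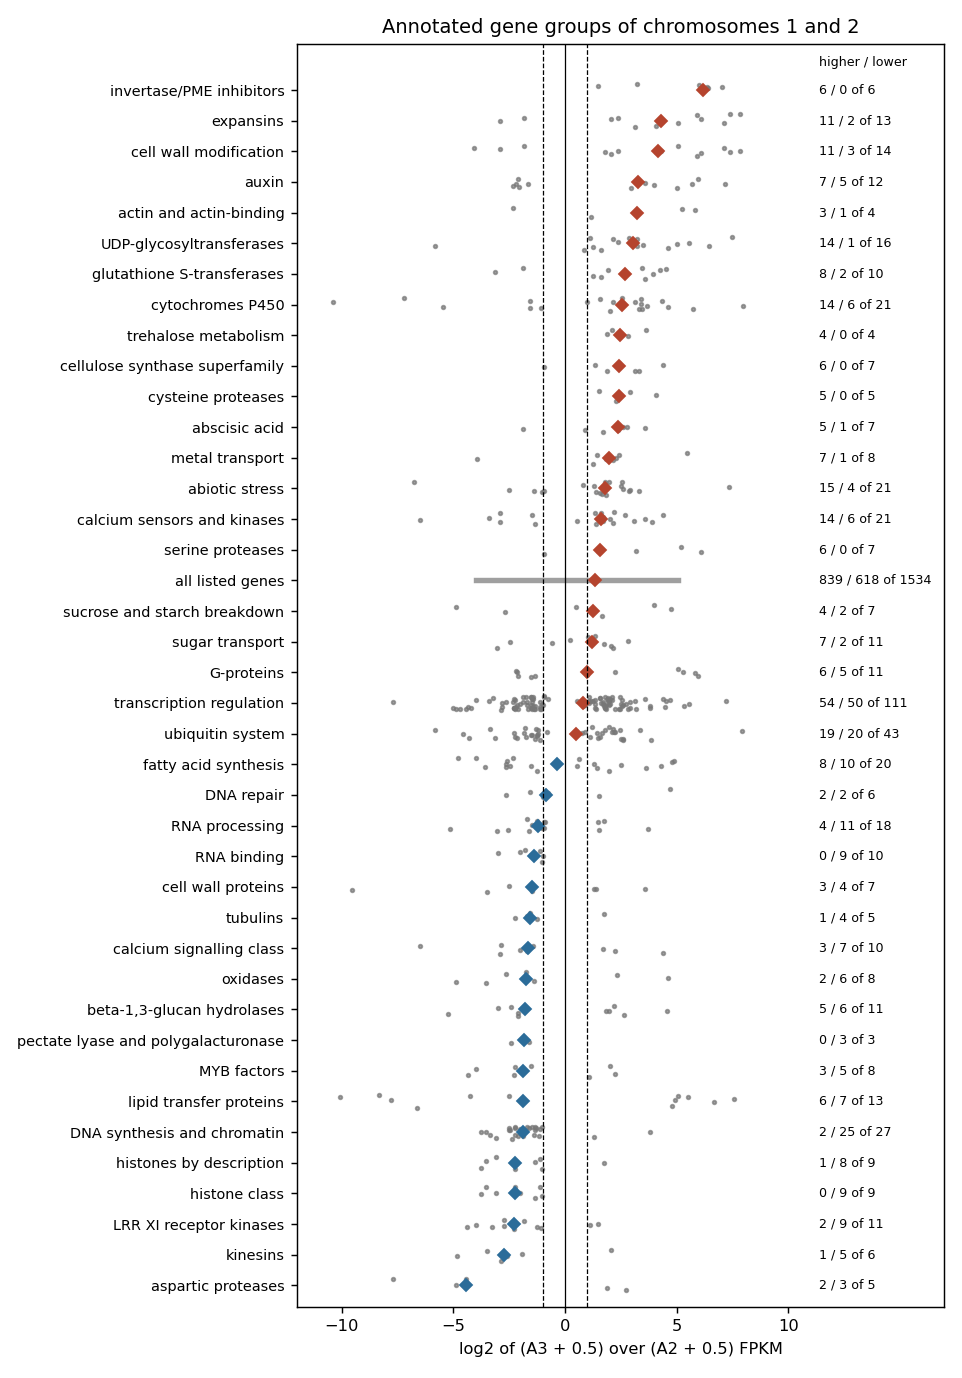
Log2 of (A3 + 0.5) over (A2 + 0.5) FPKM of the annotated genes of chromosomes 1 and 2 by group, with 1 grey point per locus, a diamond at the group median and the counts of higher and lower loci at the right. Dashed lines mark 2-fold differences, and the grey bar spans the 5% to 95% quantiles of all 1534 loci. Of the groups drawn, loci described as inhibitors of invertase or pectin methylesterase have the highest median (6.19) and aspartic proteases the lowest (-4.43). Values of loci listed at 0 in A2 rest on the 0.5 FPKM added.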

How the data were processed

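Whole-anther RNA was sequenced from 3 libraries per stage, made with a strand-specific kit for total RNA. In their processing the authors removed rRNA reads with Bowtie2 2.2.9, aligned with STAR to sorghum genome version v3.0.1, quantified with StringTie 1.3.3b and combined replicates with cuffdiff, and they deposited linear FPKM values, 1 per locus and stage. Depth per locus is therefore unknown, and the planned leaving out of replicates was not possible. Column names were matched to stages by their labels.

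Counts, medians and log2 ratios (pseudocount 0.5 FPKM, minimum 1 FPKM, fold limit 2) were computed with python 3.11.15, numpy 2.4.6, pandas 2.3.3 and scipy 1.17.1, and plotted with matplotlib 3.10.9. Calls were tried on simulated data without the pseudocount and without loci at 0 in A2. Calls with the pseudocount, as used here, were not tested in that way. Of the members, 943 hold several gene IDs and 5314 share their deposited interval with another locus. Starts have 1 added to the deposited value, which met 736 RefSeq starts against 163 without it.

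Named genes were, by rule, the 12 described loci with the largest log2 in each direction, the extremes of each chromosome, the 10 highest of each stage, the 63 listed orthologues, loci beside the limits, up to 4 genes per list with the largest log2, and the longest runs. Genes named outside it, and the families by description and finer pathway classes, were chosen after values were seen. Members and lists were chosen with earlier results of these data known. Gene IDs matched 0 RefSeq IDs, so planned keyword groups over all chromosomes and promoter motifs were not run. Alternatives were pseudocounts of 0.1 and 1, no minimum or 5 FPKM, 4 scalings, a fold limit of 4, loci with 1 ID and classes by A1 or A3. Loci with an interval of their own, and loci above 0 in both stages without a pseudocount, were added after the data were seen.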

Additional observations from a re-analysis of the deposited data

How the results depend on the processing

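No paired analysis was possible because the columns hold 1 combined value per stage, and fits without a replicate or with a replicate block were not run for the same reason. The balance of the 2 directions depended on the scaling. The median log2 of 0.01 became -0.023 with median-of-ratios scaling, -0.14 with quantile normalization, -0.25 with the same sum over all loci and -0.17 with the same sum without the 100 highest loci of each stage, and it was 0.033 over loci with an interval of their own. With the same sum without the 100 highest loci, 4288 loci were higher and 4317 lower, and 4 of the 10 chromosomes had more higher than lower loci. With the same sum over all loci, higher loci held 3.58% of the A2 sum and lower loci 5.46% of the A3 sum. With a fold limit of 4, higher loci numbered 2529 and held 1.39% of the A2 sum, and lower loci numbered 1594 and held 0.660% of the A3 sum. Over all alternatives the count of higher loci ranged from 2529 to 5067 and that of lower loci from 1594 to 4665. Medians were recomputed for 46 lists. With a minimum of 5 FPKM the median of lipid transfer proteins was 1.46, that of beta-1,3-glucan hydrolases 0.025, that of the ubiquitin system -1.002, that of transcription regulation -0.11 and that of fatty acid synthesis 0.60. Over loci with an interval of their own, that of G-proteins was -0.16, that of the ubiquitin system -0.15 and that of fatty acid synthesis 0.55. The other list medians run kept their sign. Only a scaling can turn the sign of a single gene, since pseudocounts, subsets and the fold limit cannot. The scalings moved the median of all members by -0.03 to -0.26, which is less than the fold limit. Kept signs of genes past that limit therefore say little about stability. Of 4202 values of 355 named genes past the fold limit, 0 changed sign. Of 131 values of 11 named genes within it, 5 did, for Sobic.004G303466 under 3 scalings and for Sobic.004G120150 and Sobic.004G337132 under quantile normalization. Over all named genes, 87 values dropped under the fold limit, 76 of them with the limit of 4, and 7 passed it. The values have no replicate error, so none of these differences can be set against the spread between libraries.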

Other observations

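Loci without a gene ID, which the comparison leaves out, held 14.8% of the FPKM sum in A2 and 17.4% in A3. At 1 FPKM or more in A2 or A3 there were 3293 of them, of which 1214 (36.9%) were at least 2-fold higher in A3 and 662 (20.1%) lower, with a median log2 of 0.21. MSTRG.7870 on chromosome 2 (65407521 to 65413917), which begins just after LTPL45/YY1 (65407147 to 65407500), was at 12108 FPKM in A2 and 8.69 in A3, and had stood at 23615 FPKM in A1. MSTRG.5236 on chromosome 1 (80255145 to 80255527) lies inside the expansin B2 cluster and was listed at 0 in A2 and at 202 FPKM in A3. MSTRG.30024 on chromosome 10 was at 0.109 FPKM in A2 and 333 in A3, and MSTRG.32067 on the same chromosome at 362 in A2 and listed at 0 in A3.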
